A study of Mus musculus with 12 samples.

Results

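Trimethylated lysine 4 of histone H3 (H3K4me3) was set against the monomethylated form of the same residue (H3K4me1) in mouse cKit+ bone marrow cells, the fraction rich in blood stem and progenitor cells that carries the stem cell factor receptor on its surface. The 8 libraries compared were all the H3K4me3 libraries (2 Tg, 2 WT) and all the H3K4me1 libraries (2 Tg, 2 WT) of a series of 12, whose other 4 libraries are of H3K27ac. Tg mice are of genotype Phf6R274X Tg and WT mice are wild type, both of strain C57BL/6, and genotype was ignored. The labels give neither the promoter of the transgene nor the age or sex of the mice. For each mark, the peaks of the 4 lists were merged where they overlapped or touched, and a merged region with a peak in all 4 libraries was kept as constant. This kept 24578 of 44957 merged H3K4me3 regions (54.7%) and 46121 of 139885 merged H3K4me1 regions (33.0%).

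H3K4me3 is laid down mainly at promoters by the SETD1 and KMT2A or KMT2B complexes, and proteins with CXXC domains lead these complexes to unmethylated CpG. H3K4me1 is laid down by KMT2C and KMT2D at enhancers and beside active promoters, and it remains where a nucleosome is not methylated further. In blood progenitors H3K4me1 also covers enhancers of lineage genes that are not yet active. A peak list tells where a mark was called and how wide, and not how much of the mark is there, and the read depth behind the lists is unknown.

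In each of the 4 H3K4me3 lists the names given to single peaks hold the other genotype than the label does, and no result here depends on genotype. Both H3K4me3 replicate 1 libraries had peaks at 4 of 4 Y-linked genes and the other 6 libraries at 0. The H3K4me1 lists fell into 2 levels of coverage within each genotype, with 70.7 and 117 Mb in Tg libraries and 66.3 and 120 Mb in WT libraries, against 38.3 to 43.6 Mb over the H3K4me3 lists. Of 8 marker genes of cKit+ progenitors, 8 had H3K4me3 within 1 kb of a gene end in all 4 libraries and 7 had H3K4me1 there in all 4, against 58.8% and 43.4% of all 21887 protein-coding genes. Markers of mature granulocytes were marked as often, with H3K4me3 at 8 of 8 and H3K4me1 at 7 of 8. Erythroid markers had H3K4me3 at 4 of 6 and H3K4me1 at 1 of 6, T cell markers at 3 of 6 and 2 of 6, and stroma and endothelium markers at 4 of 6 and 3 of 6. Macrophage markers had them at 2 of 6 and 3 of 6, and B cell markers at 2 of 5 and 1 of 5. Gene ends and starts can differ in both directions. Gata1 had H3K4me3 at its ends in 0 libraries and at its annotated start in 4, and Cd3d at its ends in 4 and at its start in 1. In bulk chromatin, fewer cells of a type and less of a mark per cell cannot be told apart.

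The promoters below are single examples of starts with different marks. Each runs from 250 bp before to 50 bp after an annotated start (RefSeq, GRCm38.p6), 5′ to 3′ on the strand of the gene, with CpG dinucleotides in capitals. Aftph, which encodes aftiphilin of clathrin-mediated vesicle traffic, stands for starts with H3K4me3 only (chr11:20741507-20741806, minus strand). Gata2, a transcription factor needed by blood stem cells, stands for starts with both marks (chr6:88193641-88193940, plus strand). Apoe, which encodes a lipid carrier, had both marks at its start but H3K4me1 only at the outer ends of its gene (chr7:19699139-19699438, minus strand). Acod1, the enzyme that makes itaconate in activated macrophages, has H3K4me1 only at its start (chr14:103046762-103047061, plus strand); it was chosen after its values were seen, and with H3K27ac there in 4 of 4 libraries it is one of 7 among 152 such starts.
Aftph: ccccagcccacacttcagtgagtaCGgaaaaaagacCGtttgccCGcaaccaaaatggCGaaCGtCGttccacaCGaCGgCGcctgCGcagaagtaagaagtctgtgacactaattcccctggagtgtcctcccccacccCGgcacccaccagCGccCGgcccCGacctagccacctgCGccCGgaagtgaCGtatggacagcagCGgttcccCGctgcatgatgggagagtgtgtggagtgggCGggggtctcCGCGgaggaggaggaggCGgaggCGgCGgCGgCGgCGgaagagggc
Gata2: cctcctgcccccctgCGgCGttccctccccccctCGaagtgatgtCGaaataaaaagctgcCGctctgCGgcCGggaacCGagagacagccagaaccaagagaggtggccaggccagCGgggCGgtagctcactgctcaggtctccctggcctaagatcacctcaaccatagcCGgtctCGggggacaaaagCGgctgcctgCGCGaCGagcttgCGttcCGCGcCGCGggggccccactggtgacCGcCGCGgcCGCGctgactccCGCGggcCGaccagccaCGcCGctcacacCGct
Apoe: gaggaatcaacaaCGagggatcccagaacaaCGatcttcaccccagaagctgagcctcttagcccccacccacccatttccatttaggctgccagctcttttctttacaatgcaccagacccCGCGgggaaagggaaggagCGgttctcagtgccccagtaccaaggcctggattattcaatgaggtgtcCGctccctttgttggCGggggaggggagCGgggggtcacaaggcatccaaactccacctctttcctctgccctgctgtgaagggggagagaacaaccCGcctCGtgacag
Acod1: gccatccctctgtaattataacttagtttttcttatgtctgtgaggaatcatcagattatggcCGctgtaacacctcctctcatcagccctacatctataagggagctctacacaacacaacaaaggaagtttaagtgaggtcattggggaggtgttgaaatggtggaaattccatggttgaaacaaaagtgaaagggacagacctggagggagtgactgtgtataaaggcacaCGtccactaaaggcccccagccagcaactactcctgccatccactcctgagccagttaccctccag

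These sequences hold 28 CpG for Aftph, 32 for Gata2, 10 for Apoe and 2 for Acod1. The ratio of observed to expected CpG, which corrects for base composition, was 0.858 for Aftph, 0.900 for Gata2, 0.403 for Apoe and 0.121 for Acod1. The examples with both marks do not follow their class, whose median was 0.721 and quartiles 0.525 and 0.870. An annotated start, here and below, is the outermost RefSeq start in the table used, which covers 17492 of the 21887 genes (79.9%); starts on chromosome 18 are not analysed here.

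The 2 marks differed in number, position and promoter composition of their peaks. H3K4me3 peaks were fewer, lay closer to gene ends, were more often on H3K27ac and marked promoters richer in CpG. The H3K4me3 lists held 34920 and 36676 peaks in Tg libraries and 39584 and 37147 in WT libraries, against 104781 and 121172 H3K4me1 peaks in Tg libraries and 100316 and 130348 in WT libraries. The lists of the 2 marks did not overlap in number. Within 1 kb of a gene end lay 36.3% ± 1.20 of H3K4me3 peaks and 17.2% ± 1.31 of H3K4me1 peaks (SD, n = 4 libraries each). The median distance to a gene end was 3.92 ± 0.483 kb for H3K4me3 and 10.4 ± 0.595 kb for H3K4me1. Peaks inside a gene and over 1 kb from its ends made up 38.3% ± 0.5996 of H3K4me3 and 53.0% ± 1.98 of H3K4me1 peaks.

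H3K27ac is the acetyl mark of active promoters and enhancers. Its constant regions, merged in the same way, were touched by 51.6% ± 2.51 of H3K4me3 peaks and 26.96% ± 3.87 of H3K4me1 peaks. Promoters under an H3K4me3 peak had a median CpG ratio of 0.781 ± 0.00176, and those under an H3K4me1 peak one of 0.642 ± 0.0226. In each of these measures the 4 H3K4me3 libraries lay apart from the 4 H3K4me1 libraries, and the two-sided exact permutation test gave p = 0.0286, the smallest that 4 against 4 libraries allow (0.0317 after Benjamini-Hochberg adjustment over 10 measures). The design names 2 mice per genotype, so libraries may share animals, and p-values measure only the spread between these libraries, which may be technical.

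The median peak was 669 ± 50.4 bp wide in H3K4me3 lists and 543 ± 69.3 bp in H3K4me1 lists, and the libraries overlapped (exact p = 0.0571, adjusted 0.0571). Without the Tg replicate 2 H3K4me1 list the medians no longer overlapped (difference 151 bp, exact permutation p = 0.0286, adjusted 0.0286). The 90th percentile of width was 2568 ± 111 bp for H3K4me3 and 1635 ± 412 bp for H3K4me1 (exact p = 0.0286, adjusted 0.0317). The libraries did not overlap in it (2427 to 2693 against 1250 to 2040 bp). The call was lost without the WT replicate 1, Tg replicate 1 or Tg replicate 2 H3K4me3 list (adjusted 0.0635 to 0.0714), where the remaining lists still did not overlap. Both orders turned round when each list was limited to its 30000 strongest peaks, with medians of 926 ± 51.2 bp for H3K4me3 and 1236 ± 416 bp for H3K4me1 (exact p = 0.371, adjusted 0.531) and 90th percentiles of 2785 ± 111 and 2831 ± 972 bp (exact p = 0.800, adjusted 0.889). Covered length was 40.7 ± 2.22 Mb for H3K4me3 and 93.4 ± 28.9 Mb for H3K4me1 (exact p = 0.0286, adjusted 0.0317). The call was lost at equal peak numbers, with 38.8 ± 1.92 and 46.0 ± 15.6 Mb (exact p = 0.429, adjusted 0.536). It was also lost without any 1 of the 4 H3K4me3 lists (adjusted 0.0635 to 0.0952). The lists did not overlap in covered length (38.3 to 43.6 against 66.3 to 120 Mb), so that loss does not stem from an overlap.

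**Figure D1:**
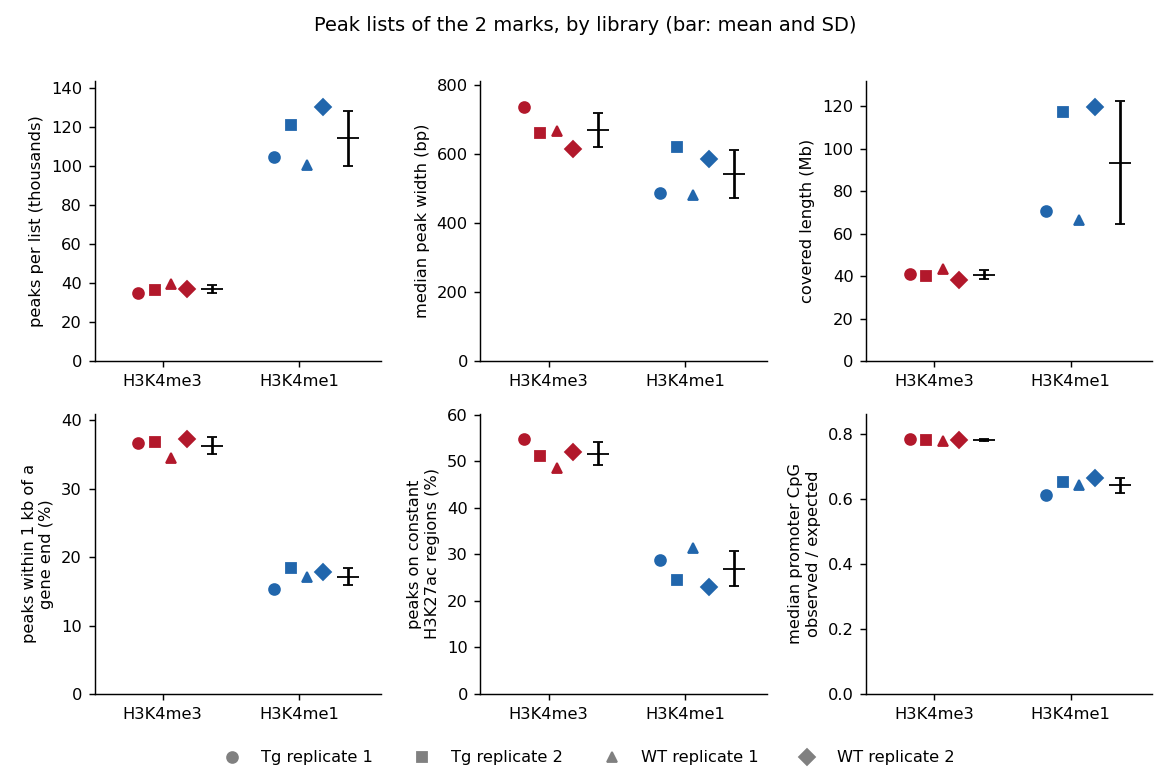
Each point is 1 library, with H3K4me3 in red at the left and H3K4me1 in blue at the right of each panel, and black bars give the mean and SD of 4 libraries; all axes start at 0. H3K4me3 peaks are fewer (34920 to 39584 against 100316 to 130348 per list) and more often within 1 kb of a gene end (36.3% against 17.2% on average), while median widths overlap.

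Of the constant H3K4me3 length, 56.3% was also covered by constant H3K4me1 regions, and 24.6% of the constant H3K4me1 length was covered by constant H3K4me3 regions. The shared 24.9 Mb came from totals of 44.2 Mb for H3K4me3 and 101 Mb for H3K4me1. The Jaccard index, the shared length over the joint length, was 0.742 to 0.793 between pairs of H3K4me3 libraries and 0.433 to 0.631 between pairs of H3K4me1 libraries. Between a library of each mark it was 0.154 to 0.205, below every pair within a mark. Single libraries differed in how much they shared: the H3K4me1 peaks of Tg libraries covered 40.2% and 60.7% of the constant H3K4me3 length, and those of WT libraries 44.1% and 63.4%.

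Per library, 54.6% ± 1.35 of the H3K4me3 length lay in constant H3K4me1 regions and 25.2% ± 2.94 of the H3K4me1 length in constant H3K4me3 regions (exact p = 0.0286, adjusted 0.0317). The order depended on how many peaks were kept. With the 30000 strongest peaks of each list the shares were 19.6% ± 1.49 for H3K4me3 and 25.3% ± 3.79 for H3K4me1 (exact p = 0.0286, adjusted 0.0476), so the direction turned. With peaks of a −log10 q-value of at least 5 they were 34.7% ± 1.59 and 24.7% ± 3.20 (exact p = 0.0286, adjusted 0.0317).

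By region, 73.4% of constant H3K4me3 regions touched a constant H3K4me1 region and 21.6% touched H3K4me1 peaks of some libraries only. The remaining 1213 regions (4.94%) touched no H3K4me1 peak in any library; they were narrow (median 697 bp), and 61.0% of them lay over 5 kb from every gene end and start. Of constant H3K4me1 regions 47.7% touched a constant H3K4me3 region, and 17614 (38.2%) touched no H3K4me3 peak in any library. These regions without H3K4me3 were 1543 bp wide in the median, 79.1% of them lay over 5 kb from gene ends and starts, and 10.3% overlapped constant H3K27ac. H3K4me1 regions that shared a constant H3K4me3 region overlapped constant H3K27ac in 76.0% of cases.

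Constant H3K4me3 regions were split by position. Those with an annotated start numbered 9215 (37.5%), had a median width of 2246 bp, and overlapped constant H3K27ac in 74.0% of cases. Those over 5 kb from every gene end and start, called distal here, numbered 9410 (38.3%), had a median width of 933 bp, and overlapped constant H3K27ac in 53.3%. Only the ends of protein-coding genes and 1 annotated start per gene were counted. Distal regions may thus hold other starts, and 51.2% of them overlapped a gene. A constant H3K4me1 region was touched by 76.8% of the start regions and 71.1% of the distal regions. Among constant H3K4me1 regions 1846 held a start and 55.3% were distal.

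Around H3K4me3 regions, H3K4me1 cover was lower 500 to 1500 bp outside than at the edges or the centre in all 4 H3K4me1 libraries. H3K4me1 peaks covered 23.0% ± 7.57 of the bases 500 to 1500 bp outside constant H3K4me3 regions and 42.8% ± 10.4 of the 100 bp on each side of their centre (SD, n = 4 H3K4me1 libraries). The difference of -19.9 ± 3.24 percentage points was below 0 in 4 of 4 libraries (exact sign-flip p = 0.125, the smallest that 4 libraries allow). Far away, 45000 to 55000 bp from the regions, coverage was 7.63% to 12.9%. In the other direction H3K4me3 peaks covered 27.9% ± 2.46 of the centres of constant H3K4me1 regions and 14.4% ± 0.445 of the bases beside them. Of constant H3K4me3 regions, 50.1% had constant H3K4me1 within 1 kb outside both edges, 22.8% outside 1 edge and 27.1% outside neither. A call of at least 500 bp on each side lowered the first share to 26.5%.

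In a measure added after the first values were seen, H3K4me1 at the edges of H3K4me3 regions was set against that at the centres. At starts, H3K4me1 covered 35.5% and 63.0% of the edges (within 250 bp of the region's limits) in Tg libraries and 39.7% and 66.2% in WT libraries. At the centres of the same regions it covered 15.6% and 30.8% in Tg libraries and 19.1% and 33.8% in WT libraries. The edges were higher in 4 of 4 libraries, by 26.3 ± 6.93 percentage points (exact sign-flip p = 0.125). In distal regions edges and centres had 59.2% ± 11.02 and 57.1% ± 11.3, a difference of 2.15 ± 1.76 points, which was 0.769 without the Tg replicate 1 H3K4me3 list and 3.47 at a −log10 q-value of at least 5. The gap at starts exceeded that at distal regions by 24.1 ± 7.35 points, in 4 of 4 libraries (exact sign-flip p = 0.125). Region width was not matched in this comparison. The lower quartile of width was 1632 bp for start regions and 671 bp for distal regions. In the narrowest regions the edge and centre windows share bases, which brings their values closer. An H3K4me1-free centre in all 4 libraries was found in 47.9% of start regions and 15.7% of distal regions.

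**Figure D2:**
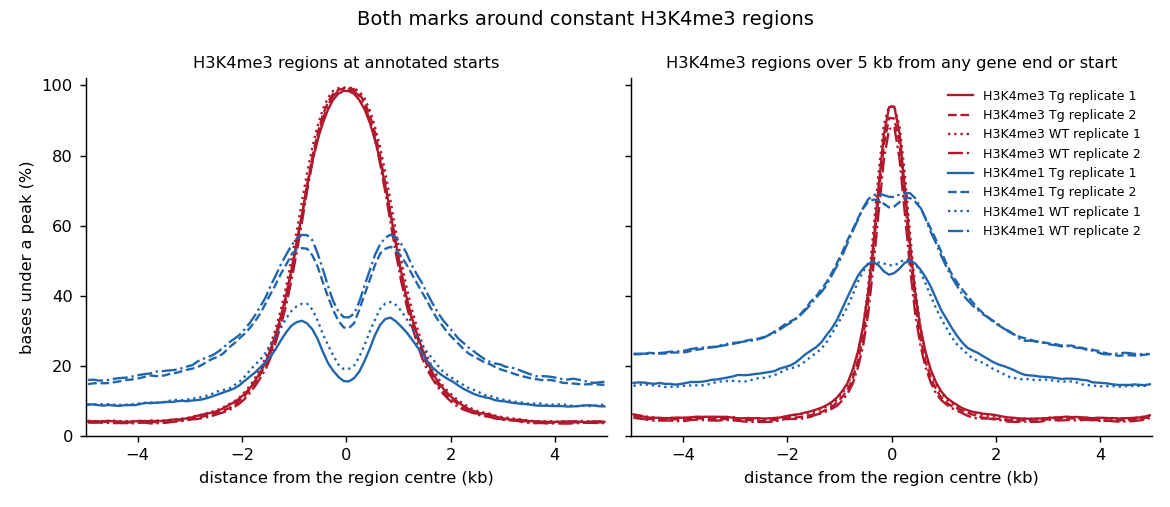
Percentage of bases under a peak (vertical axis) by distance in kb from the centre of constant H3K4me3 regions, for 9215 regions with an annotated start (left) and 9410 distal regions (right); red lines are the 4 H3K4me3 libraries and blue lines the 4 H3K4me1 libraries. H3K4me1 has 2 crests and a dip at start regions (centre 24.8% on average) and a broad hump at distal regions (centre 57.1%).

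The width of the H3K4me3 region went with the pattern at starts. In the 569 start regions under 1 kb wide, H3K4me1 covered 27.03% ± 11.01 of the edges and 43.8% ± 17.4 of the centres, so the order there was the opposite one. At 1 to 2 kb (3108 regions) the edges stood at 40.0% ± 14.2 and the centres at 26.5% ± 10.5, and at 2 to 3 kb (3073 regions) at 56.6% ± 16.7 and 16.7% ± 6.34. Start regions of 5 kb or more (483) had H3K4me1 on 68.3% ± 17.9 of their edges and again on 43.6% ± 11.9 of their centres. Constant H3K27ac regions overlapped 5.80% of the start regions under 1 kb and 97.9% of those of 5 kb or more. In regions under 1 kb the edge windows come close to the centre window, and in the narrowest they overlap it. Distal centres stayed between 45.0% and 58.9% in every width class, while distal edges rose with width, from 55.1% ± 10.6 under 1 kb to 69.8% ± 14.3 at 5 kb or more. The 63 distal regions of 5 kb or more thus had higher edges than centres (45.0% ± 11.6), as start regions of that width did. Regions under 1 kb made up 55.4% of distal and 6.17% of start regions.

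**Figure D3:**
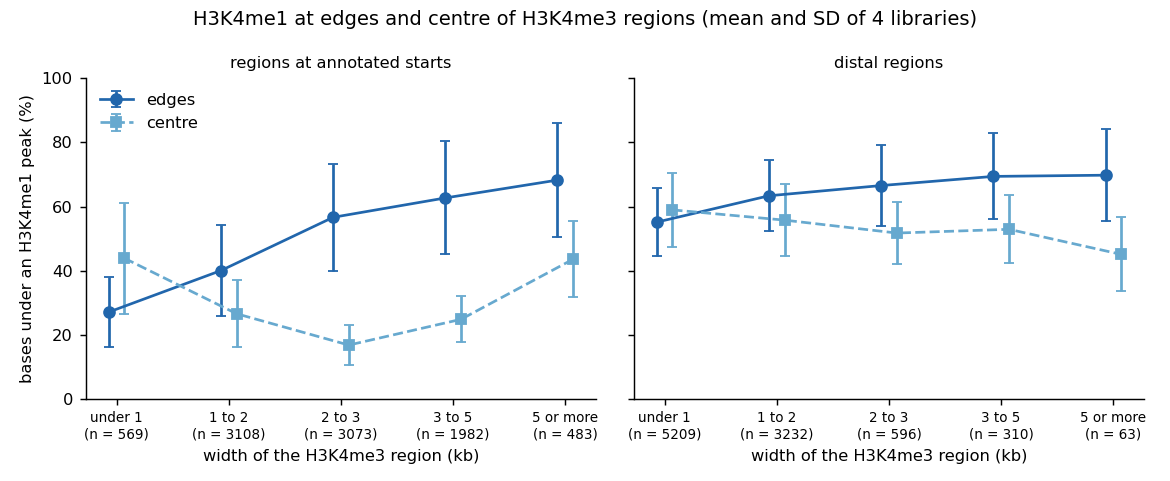
Percentage of bases under an H3K4me1 peak at the edges (circles) and the centre (squares) of constant H3K4me3 regions, by region width in kb, for start regions (left) and distal regions (right); points are means and bars SDs of 4 H3K4me1 libraries, and n counts regions. At starts the gap is widest at 2 to 3 kb, with 56.6% at the edges and 16.7% at the centre.

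H3K4me1 dipped at annotated starts that had H3K4me3. At the 10230 starts with H3K4me3 within 500 bp in all 4 libraries, read in the direction of transcription, H3K4me3 covered the start itself in 96.2% and 96.9% of genes in Tg libraries and 97.6% and 96.5% in WT libraries. The choice of these starts largely fixed that cover, and H3K4me1 was not used to choose them. H3K4me1 covered the start in 8.03% and 17.2% in Tg libraries and 9.53% and 18.9% in WT libraries, its lowest point within 500 bp. H3K4me1 had a crest 600 bp upstream (28.0% and 48.7% in Tg, 32.8% and 52.7% in WT libraries) and a higher one 1000 or 1100 bp downstream (36.4% and 57.9% in Tg, 41.4% and 61.2% in WT libraries). The downstream crest was higher by 8.69 ± 0.358 percentage points in 4 of 4 libraries (exact sign-flip p = 0.125). H3K4me3 cover was highest 100 bp downstream in all 4 libraries (97.7% ± 0.544), and its nearest summit lay a median of 189 to 198 bp after the start. H3K4me1 summits lay at a median of -602 to -647 bp upstream and 894 to 951 bp downstream.

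**Figure D4:**
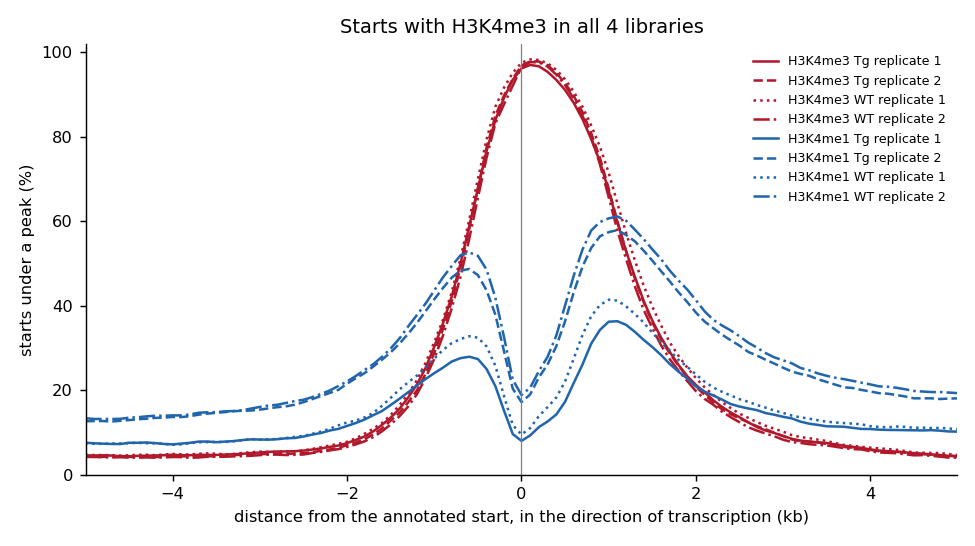
Percentage of the 10230 starts with H3K4me3 in all 4 libraries that lie under a peak (vertical axis), by distance from the start in kb in the direction of transcription; red lines are H3K4me3 libraries and blue lines H3K4me1 libraries. H3K4me3 covers 96.2% to 97.6% of starts, as the choice of starts largely fixes, and is highest 100 bp after them, while H3K4me1 is lowest at the start within 500 bp (8.03% to 18.9%), and the downstream H3K4me1 crest is the higher one.

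Genes with 1 mark only were few. Within 1 kb of either end of the gene, H3K4me3 in all 4 libraries and no H3K4me1 in any was found at 430 of 21887 genes (1.96%), and the reverse at 343 (1.57%). Both marks in all 4 libraries were found at 8888 genes (40.6%) and neither mark in any library at 6773 (30.9%). Without the WT replicate 2 H3K4me1 library 652 genes had H3K4me3 only, and with the 30000 strongest peaks of each list 4099 did. Around starts, where the window was 500 bp on each side, 1683 of 17492 starts (9.62%) had H3K4me3 only, 3543 (20.3%) both, 152 (0.869%) H3K4me1 only and 5931 (33.9%) neither. A further 5004 starts had H3K4me3 in all 4 libraries and H3K4me1 in 1 to 3 of them.

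H3K4me1 was near many starts with H3K4me3 only, outside the window: 1 kb upstream of them it covered 29.2% and 49.1% in Tg libraries and 35.8% and 50.7% in WT libraries. The classes differed in sequence. The median CpG ratio was 0.857 at starts with H3K4me3 only and 0.721 at those with both marks, against 0.199 with H3K4me1 only and 0.178 with neither. The motif TATAAA, sought 50 to 10 bp before the start on the strand of the gene, was in 1.07% of promoters with H3K4me3 only, 1.81% with both, 7.89% with H3K4me1 only, 6.88% with neither and 3.28% of all. On the opposite strand it was in 0.892% of all. Acod1 has it, as 12 of the 152 starts with H3K4me1 only do, and Aftph, Gata2 and Apoe do not. H3K27ac lay within 500 bp in all 4 libraries at 85.9% of starts with H3K4me3 only and 69.8% of those with both, against 4.61% with H3K4me1 only and 0.0169% with neither.

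By the rule for named genes, those with the longest H3K4me3 cover and no H3K4me1 at their ends included Cldn13, a claudin of tight junctions, Aftph, Arid2, Arl6ip6, Atp2b1, Atp6v1a, BC005537, Bicra and Capza1. Cldn13 had 2517 and 2267 bp of H3K4me3 in Tg libraries and 2056 and 2230 bp in WT libraries, and 0 bp of H3K4me1 in all 4. The others named here filled a window of 2001 bp in all 4 libraries, a tie broken by alphabet. Among them are Arid2 and Bicra, subunits of SWI/SNF chromatin remodellers, Atp6v1a of the vacuolar proton pump and Atp2b1, a plasma membrane calcium pump. Of the 9 genes named, the 5 with an annotated start in the table also had H3K4me3 only there and H3K27ac in 4 of 4 libraries.

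With H3K4me1 only at their ends the rule named Apoe, Scimp, Gm6713, Haao, Mroh2a, Acod1, Acsbg2, Tnni2, F7 and Serpinb2. Apoe had 2483 and 3571 bp of H3K4me1 in Tg libraries and 2302 and 3075 bp in WT libraries, and 0 bp of H3K4me3 in all 4. Acod1 had 2729 and 2946 bp in Tg libraries and 1471 and 2588 bp in WT libraries, again with 0 bp of H3K4me3, and kept this class at its start. F7 encodes a coagulation factor of the liver, Tnni2 a troponin of fast muscle and Serpinb2 a plasminogen activator inhibitor of macrophages. Apoe and Haao had H3K4me3 in 4 of 4 libraries at their annotated starts, which lie away from the outer gene ends, so the class at gene ends does not carry over to every start.

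The next values are cover within 1 kb of gene ends. Phf6, the X-linked gene named in the Tg genotype, had 1545 and 1528 bp of H3K4me3 in Tg libraries and 1530 and 1510 bp in WT libraries, and 0 bp of H3K4me1 in all 4. Inside the whole H3K4me3 region at Phf6 (2557 bp), H3K4me1 covered 312 bp in the WT replicate 2 library and 0 bp in the others. Kit, whose product was the sorting antigen, had 1653 and 1657 bp of H3K4me3 in Tg libraries and 1759 and 1672 bp in WT libraries. Its H3K4me1 cover was 0 and 579 bp in Tg libraries and 328 and 520 bp in WT libraries. Gata2 had 1442 and 1343 bp of H3K4me3 in Tg libraries and 1472 and 1388 bp in WT libraries, and 1150 and 1738 bp of H3K4me1 in Tg and 1169 and 2439 bp in WT libraries. Within 1 kb of the gene ends, H3K4me3 cover varied little among the libraries at these 3 genes, and H3K4me1 cover varied more at Kit and Gata2. Over the whole H3K4me3 regions of Kit and Gata2, given below, H3K4me3 cover varied more. The Gata2 start had H3K27ac within 500 bp in 0 of 4 libraries.

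The widest constant H3K4me3 regions lay at Irf2bp2 (13342 bp; chr8:126583519-126596860), Kdm6b, Zbtb7b, Wfdc21, Tspoap1, Ncf1, Tuba4a, Erg, Ltf and Grk2. Of these, Erg is a transcription factor of blood stem cells, Ncf1 a subunit of the phagocyte NADPH oxidase, Ltf lactoferrin of granulocyte granules, and Kdm6b a demethylase of H3K27. All 10 overlapped H3K27ac in 4 of 4 libraries and all held H3K4me1 inside in every library. Among all constant H3K4me3 regions of 5 kb or more, 97.9% of those with a start and 98.4% of the distal ones overlapped constant H3K27ac, and 98.6% and 95.2% touched constant H3K4me1. At Irf2bp2, which encodes a transcriptional corepressor, H3K4me3 covered 13066 and 12825 bp of the region in Tg libraries and 13066 and 12844 bp in WT libraries. H3K4me1 covered 4509 and 6628 bp of it in Tg libraries and 5919 and 6366 bp in WT libraries, less than H3K4me3 in every library, with 0% at the centre.

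The Kit region (chr5:75574229-75580128, 5900 bp) had 4498 and 5138 bp of H3K4me3 in Tg libraries and 5900 and 5427 bp in WT libraries, with 3149 and 4633 bp of H3K4me1 in Tg and 3398 and 4258 bp in WT libraries. The Gata2 region spanned 10535 bp (chr6:88193420-88203954). H3K4me3 covered 6719 and 9599 bp of it in Tg libraries and 10535 and 9155 bp in WT libraries. H3K4me1 covered 2592 and 4918 bp of it in Tg and 5152 and 8249 bp in WT libraries. The widest constant H3K4me1 regions that touched no H3K4me3 peak overlapped Mvb12b (13056 bp; chr2:33845999-33859054), Vps13d, Tg (the thyroglobulin gene), Cyrib, Mgat5, Zfpm1, Ell, Smap2, Pla2g7 and Dyrk1a. Zfpm1 encodes FOG1, the cofactor of GATA1 in erythroid and megakaryocyte cells, and Ell an elongation factor of RNA polymerase II. None of these 10 held a start, and 5 of 10 overlapped H3K27ac in 4 of 4 libraries, against 0.545% and 10.3% of all 17614 such regions. No region met the rule of H3K4me1 over the whole of both 1 kb flanks with an empty centre in all 4 libraries. With any H3K4me1 in both flanks of each library and an empty centre, a rule set after the values were seen, 843 regions were found, of which 584 were start regions and 114 distal. The widest lay at Irf2bp2, Erg, Tnrc18, Zfp36l2, Tle3 and Fam160b1.

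Gene lists are described by their counts at annotated starts. Over all genes, H3K4me3 in all 4 libraries was at 58.5% of starts and H3K4me1 at 21.8%, with both marks at 20.3% and H3K4me3 only at 9.62%. Granulocyte genes had H3K4me3 at 18 of 18 starts, with both marks at 12 (Camp, Chil3, Ctsg, Cxcr2, Elane and Lcn2 among them) and H3K4me3 only at 0. Elane, the neutrophil elastase gene, had 2828 and 2757 bp of H3K4me3 at its ends in Tg libraries and 3301 and 2600 bp in WT libraries, and 1213 and 3605 bp of H3K4me1 in Tg and 1252 and 3533 bp in WT libraries. Mpo, the myeloperoxidase gene, also had both marks. Erythroid genes had H3K4me3 at 13 of 15 starts, both marks at 2 (Tal1 and Tfrc; 4 without the WT replicate 1 H3K4me1 list) and H3K4me3 only at 5 (Ermap, Gata1, Hba-a1, Rhag and Trim10). Rhag, of the erythrocyte membrane, had 1205 and 1059 bp of H3K4me3 in Tg libraries and 971 and 1002 bp in WT libraries, and 0 bp of H3K4me1 in all 4. The start of Rhag had a CpG ratio of 0.0858 and that of Gata1 0.167, below the lower quartile of 0.712 of all starts with H3K4me3 only. H3K27ac was at the starts of Gata1, Hba-a1 and Trim10 in 0 of 4 libraries. Reads of Hba-a1 and its near-identical copy Hba-a2 may be shared.

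Stem and progenitor transcription factors had H3K4me3 at 16 of 19 starts, both marks at 6 (Gata2, Gfi1b, Ikzf1, Lyl1, Runx1 and Tal1) and H3K4me3 only at Etv6. Receptors of blood progenitors had H3K4me3 at 11 of 13, both marks at Cd34, Cd48, Itga2b and Procr, and H3K4me3 only at Csf3r. Among starts with H3K4me3, both marks were at 37.5% in the first list and 36.4% in the second, near the 34.6% of all genes. Of all starts, whether marked or not, 20.3% had both marks and 9.62% H3K4me3 only. Genes of basal transcription and splicing had H3K4me3 at 19 of 19 starts, H3K4me3 only at 8 (Cdk9, Hnrnpa1, Hnrnpc, Polr2a, Polr2b and Sf3b3 among them) and both at 4. Cytosolic ribosomal protein genes had H3K4me3 at 60 of 68, H3K4me3 only at 20 and both at 10. Cell cycle and replication genes had it at 24 of 24, H3K4me3 only at 5 (Mcm5, Mki67, Pcna, Plk1 and Rrm2) and both at 7.

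Of H3K4 methyltransferases and their subunits 11 of 13 starts had H3K4me3, 6 had H3K4me3 only (Hcfc1, Kdm6a, Kmt2a, Kmt2c, Kmt2d and Paxip1) and 2 both (Men1 and Wdr82). Kmt2c, one of the enzymes that write H3K4me1, had 1908 and 1865 bp of H3K4me3 at its ends in Tg libraries and 1920 and 1900 bp in WT libraries, and 0 bp of H3K4me1 in all 4. Kmt2d and Paxip1 had H3K4me1 at their ends in all 4 libraries, with 807 and 1169 bp in Tg and 1139 and 1096 bp in WT libraries at Kmt2d, and 761 and 474 bp in Tg and 462 and 522 bp in WT libraries at Paxip1. Within 1 kb of gene ends the order of the classes was the opposite one, with H3K4me3 only at 3 and both marks at 11 of 18 methyltransferase genes, at 1 and 16 of 22 basal transcription genes and at 3 and 61 of 89 ribosomal protein genes, against 1.96% and 40.6% of all genes. The list of H3K4 demethylases had H3K4me3 at 5 of 5 starts, with H3K4me3 only at Rcor1, a listed corepressor that is not itself a demethylase. Of the H3K4me3 only starts in these lists, Hcfc1, Kdm6a, Gata1, Taf1 and 3 ribosomal protein genes are on the X chromosome, where H3K4me1 was sparse. On autosomes H3K4me3 only was at 4 of 11 methyltransferase, 7 of 17 basal transcription and 17 of 64 ribosomal protein starts, against 9.10% of all autosomal starts. These lists had H3K4me3 at most of their starts, and all genes did not. Of the 9876 autosomal starts with H3K4me3, 15.2% had H3K4me3 only.

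In lists of other cell types, where no difference from all genes was tested, H3K4me3 was at 1 of 14 hepatocyte starts (Apoa2), 6 of 12 neuron, 6 of 18 T and NK cell, 3 of 12 B cell, 4 of 10 monocyte and macrophage and 5 of 11 stroma and endothelium starts, against 58.5% of all starts. None of these 6 lists had a start with H3K4me3 only, and each had 1 to 4 with both (7.14% to 30.0% of its starts), against 9.62% and 20.3% of all starts. Among starts with H3K4me3, both marks were at 40.0% (stroma and endothelium) to 75.0% (monocyte and macrophage) and at the 1 hepatocyte start, against 34.6% over all genes. H3K4me1 only was at Mrc1 of the macrophage list, Klrb1c of the T and NK cell list and Dlg4 of the neuron list. Of 23 starts of developmental homeobox genes, which were rich in CpG (median ratio 0.861), 9 had H3K4me3 and 5 both marks (Dlx1, Dlx2, Gbx2, Lhx1 and Nkx6-1). Of 944 olfactory receptor starts 924 had neither mark. List sizes are small, and counts with both marks moved with the threshold: at a −log10 q-value of at least 5 the granulocyte list had 5 and all genes 1518, and with the 30000 strongest peaks 2 and 516.

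**Figure D5:**
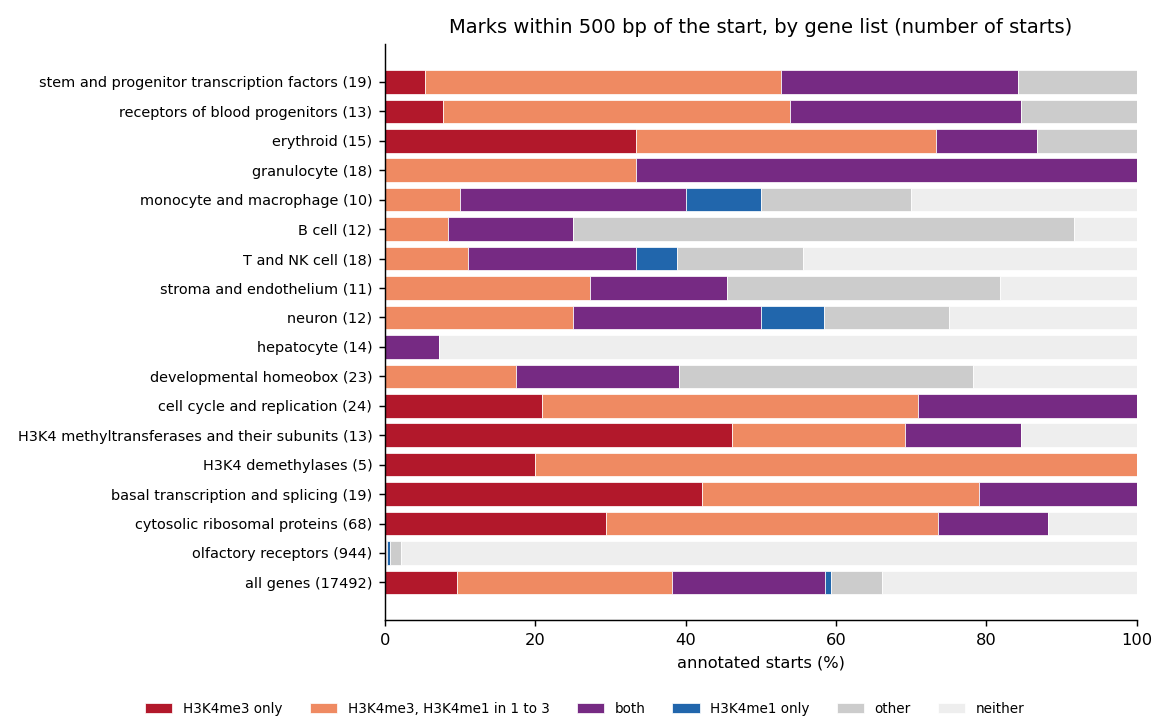
Share of annotated starts (%) in each class of marks within 500 bp, by gene list, with the number of starts in brackets and all 17492 starts at the bottom. Starts with H3K4me3 only (dark red) make up 8 of 19 in basal transcription and splicing and 0 of 18 in the granulocyte list, where 12 have both marks (purple).

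The X chromosome differed between the marks. It held 2.46% ± 0.118 of H3K4me3 peaks and 1.43% ± 0.410 of H3K4me1 peaks (SD, n = 4 each; exact permutation p = 0.0286), in a comparison added after the data were seen. H3K27ac lists had 2.26% ± 0.132 of their peaks there. Of 354 X-linked starts with H3K4me3 in all 4 libraries, 11 (3.11%) had H3K4me1 in all 4, against 35.8% of 9876 autosomal ones and 27.5% to 43.2% in each of the 18 autosomes analysed. By library, H3K4me1 lay within 500 bp of 11.02% and 30.2% of these X-linked starts in Tg libraries and 13.3% and 34.7% in WT libraries, against 47.1% and 73.4% of autosomal ones in Tg libraries and 55.1% and 77.1% in WT libraries. The X-linked starts had a median CpG ratio of 0.680 and the autosomal ones 0.783. The sex of the mice is not in the labels, and its part in this was not tested.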

How the data were processed

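Chromatin was crosslinked, sheared, precipitated and sequenced as single-end reads of 75 bp, per the labels' protocols. The submitters' processing notes name Bowtie2, MACS2, SAMtools, deepTools, Trim Galore and FastQC with build mm10; versions, settings and the control are not given in the sources used here. The authors deposited 1 narrowPeak list per library, called per sample. Beside its position, each deposited peak has a score, the ratio (fold enrichment) at its summit, and its p-value and q-value as −log10. The lists hold no read counts, so depth is unknown and no interval that needs it is given; −log10 q-values served only to rank or filter peaks within a list.

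Peaks were merged within a mark, and presence needed 1 bp. Genes and starts came from RefSeq tables of GRCm38.p6. Coordinates are 1-based. Library values (4 H3K4me3 against 4 H3K4me1) were compared over all 70 relabellings in an exact permutation test, two-sided and adjusted by Benjamini-Hochberg at 0.05. Coverage differences within 4 libraries used exact sign-flip tests. Code was tested on simulated intervals. Python 3.11.15, numpy 2.4.6, pandas 2.3.3, scipy 1.17.1 and matplotlib 3.10.9 were used.

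The named genes are Kit, Phf6 and Gata2, the genes within 10 kb of the 10 widest constant H3K4me3 regions and of the 10 widest constant H3K4me1 regions without H3K4me3, the 10 genes of each single-mark class with the longest cover of that mark, the 6 widest H3K4me3 regions with H3K4me1 in both flanks and none at the centre, and list members in alphabetical order, up to 6 per class; promoters shown are the first of each class with an entry. One gene that the rule names is not reported here. Single list members given with values, and Acod1, were chosen after their values were seen, and the pattern for ribosomal protein genes was tightened then. The members and lists were chosen with earlier results of these data known, and the edge, start and X chromosome measures were added after the files were seen. Same-numbered libraries of the 2 marks were not treated as pairs. Alternatives tried were a stricter q-value, equal numbers of peaks, presence in 3 libraries, wider merging and windows, longer flanks, overlap of at least 50% with H3K27ac, bases shared by all 4 libraries, annotated starts, no sex chromosomes, each library left out, and pairing by label.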

Additional observations from a re-analysis of the deposited data

How the results depend on the processing

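Of 443 values recomputed under an alternative for 36 results, 3 were scored as turned in direction, all with the 30000 strongest peaks of each list: H3K4me3 minus H3K4me1 was -310 bp in median peak width, -45.8 bp in the 90th percentile of width and -5.75 percentage points in the share of length within the other mark. Counts and shares without a test could be scored as moved but not as turned. Of the main results 23 values moved, 17 lost their call and 1 gained it, and 17 values of added measures moved. With the 30000 strongest peaks covered length differed by -7.15 Mb and lost its call. The constant sets then shared 20.1% of H3K4me3 and 22.2% of H3K4me1 length, against 56.3% and 24.6% before, so this order turned too. Of H3K4me3 regions 14.5% were then flanked on both sides and 11.6% on one. Genes then had H3K4me3 only in 4099 cases, H3K4me1 only in 85 and both in 2019. At a −log10 q-value of at least 5 the shared lengths were 35.8% and 22.2%, 26.8% of regions were flanked on both sides, and 843, 218 and 4943 genes had H3K4me3 only, H3K4me1 only and both. With presence in 3 libraries, 1101 and 720 genes had 1 mark only. Flanks of at least 500 bp were found on both sides in 26.5% and on one in 28.7% of regions. Counting only bases covered in all 4 libraries, an alternative added after the data were seen, the shared lengths were 24.7% and 20.2%. Annotated starts in place of gene ends, also added later, gave 1683, 152 and 3543 genes. The cause of these shifts was not tested. The number of peaks has no value at equal peak numbers, nor have the X chromosome measures without chromosomes X and Y.

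Leaving out 1 library, the difference in median width ran from 104 to 151 bp, that in the 90th percentile from 805 to 1068 bp and that in covered length from -61.8 to -44.0 Mb, and genes with H3K4me3 only numbered 431 to 652, and erythroid starts with both marks numbered 4 without the WT replicate 1 H3K4me1 list. Same-numbered libraries did not deviate together over 13138 genes (correlations from -0.107 to 0.0259). Different marks of 1 mouse need not deviate together, so these values cannot tell whether same-numbered libraries share an animal. With the replicate block the differences were -77072.5 peaks, 933 bp in the 90th percentile of width, -52.7 Mb, 19.2 points near a gene end, -14.7 points in a gene only, -6.46 kb in distance, 24.7 points on H3K27ac, 29.4 points of shared length and 0.139 in CpG ratio, each with an exact sign-flip p = 0.125, the smallest that 4 pairs allow. Edge, start and X chromosome differences kept their direction wherever they were recomputed. Depth is unknown, so a missing H3K4me1 call in the smaller lists does not show that the mark is absent.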
